A study of Cicer arietinum with 11 samples.

Results

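In chickpea (Cicer arietinum), 94 transcripts were shared by the germinating seedling and the shoot apical meristem and were at least 3 times lower in every other tissue measured. They were chosen from 34760 transcripts by their measured levels. The lower of the seedling and meristem values had to be at least 5 RPKM (a read count divided by transcript length and by the library's total reads) and at least 3 times the highest value in the other 9 libraries. The seedling level had to be under 10 times the meristem level, and the meristem level under 5 times the seedling level. These 94 are 0.27% of all transcripts and 0.613% of the 15329 with at least 5 RPKM in both tissues.

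The series followed flower development by mRNA sequencing of the genotype ICC4958, a desi-type chickpea line. It held 1 library each of the germinating seedling, of young leaves from mature plants and of the shoot apical meristem from plants aged 20 days, and 4 libraries each of flower buds and of flowers, numbered by stage, from mature plants. No library carried a mutation or a treatment according to the labels. Seedlings grew in a culture room and mature plants in the field. The labels do not say where the plants aged 20 days grew. Plant age runs with tissue, as does the growing site of the seedling, and their parts in the difference from the other 9 libraries cannot be told apart. With 1 library a tissue, the seedling and meristem values have no replicate, and counting intervals cover counting error only. In such bulk samples, fewer cells of a type and less RNA per cell cannot be told apart either.

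The shoot apical meristem is the small dome of dividing cells at the tip of the shoot from which leaves and stem, and later flowers, arise. A germinating seedling is a mixture of organs. It holds a young root and shoot with their own dividing tips, and the cotyledons, whose stored protein and starch feed growth. The deposited files identify transcripts by ID and do not pair them with gene names, and none of the IDs occurs in the reference gene table, with 0 of 34760 found. What the 94 transcripts encode is therefore not stated, and the tissue labels were not checked against marker genes.

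Library totals recovered from the RPKM values ran from 14536530 reads in flower bud 2 to 35643139 in flower bud 3, a 2.45-fold range. The germinating seedling had 23927246 and the shoot apical meristem 31511021. A single read was worth 0.0381 to 0.0935 RPKM at 736 bases, the median recovered length.

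The 94 members covered a wide range of levels, from transcripts among the more abundant of the plant to ones near the minimum. The lower of the seedling and meristem values ran from 5.18 to 1779 RPKM with a median of 12.2. It was under 10 RPKM for 40 members, at least 50 RPKM for 17 and at least 300 RPKM for 6. The 8 members with the highest lower value made up 60.0% of the members' summed RPKM in the seedling and 67.7% in the meristem. Together the 94 took 1.28% of the seedling's reads and 0.838% of the meristem's, against 0.0437% in young leaves, 0.0338% to 0.0431% in flower buds and 0.0659% to 0.0862% in flowers. That contrast follows from the rule that chose them, and is a description.

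**Figure D1:**
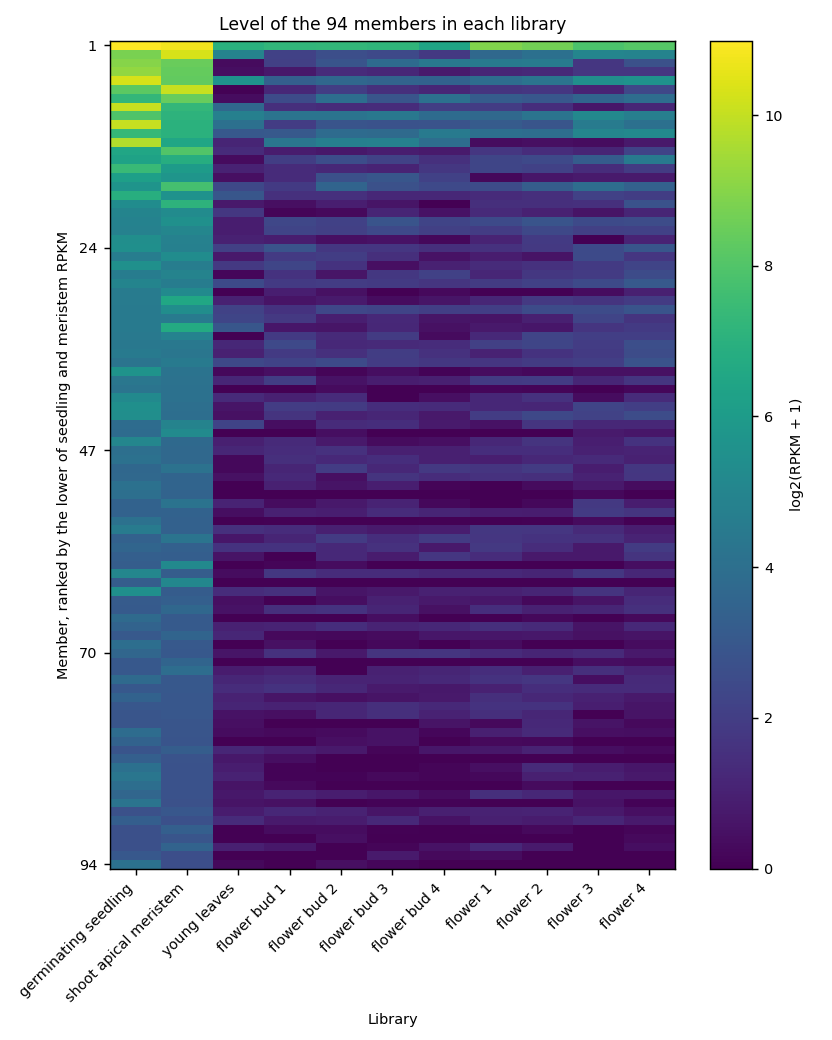
Level of each of the 94 members, as log2(RPKM + 1), in the 11 libraries, with members ranked from the highest to the lowest of the lower seedling or meristem value. The first 2 columns are brighter than the other 9 in every row by the rule; the top row, Ca_TC04329, also stands out in the flowers, where it reached 479.6 RPKM.

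Ca_TC04329 was the most abundant member, with 2028 RPKM in the seedling and 1779 in the meristem. It was also the most abundant member everywhere else. It had 126 RPKM in young leaves, then 149, 156, 144 and 84.1 in the numbered flower buds, and 479.6, 404, 230.4 and 268 in the numbered flowers. Its lower value was 3.71 times its highest other value, close to the threshold of 3, and no library was at or near 0.

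Ca_TC04201 was the member with the largest gap to the other tissues. It had 585 RPKM in the seedling and 331 in the meristem, 0.327 in young leaves, 0.612 to 1.53 in flower buds and 1.25 to 2.37 in flowers. The meristem value was 139.7 times the highest other value, in flower 4. Ca_TC04202, the next ID in the set, had the opposite balance, with 300.3 RPKM in the seedling and 1066 in the meristem. Its young leaves had 0.0524 RPKM, its flower buds 1.29 to 3.03 and its flowers 1.12 to 4.1, for a gap of 73.2-fold. The recovered lengths of this pair were 676 and 703 bases. The members held 2 pairs with consecutive IDs, and the number to expect was not computed. No source used here says how reads matching several transcripts were divided, and the sequences were not used here, so the values of such a pair are uncertain.

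Ca_TC16676 and Ca_TC15822 were nearly absent from young leaves but present in every reproductive library. Ca_TC16676 had 506 RPKM in the seedling, 352 in the meristem and 0.267 in young leaves. From flower bud 1 to flower bud 4 the values were 3.28, 6.3, 13.3 and 20.3 RPKM, and from flower 1 to flower 4 they were 22.2, 22.5, 2.36 and 5.71. Each numbered bud was above the one before, and flowers 3 and 4 were well below flowers 1 and 2, with 1 library a stage. Ca_TC15822 had 154 RPKM in the seedling, 340.1 in the meristem, 0.275 in young leaves, 4.72 to 15.6 in flower buds and 6.99 to 14.2 in flowers, where buds and flowers overlapped.

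Ca_TC09532, Ca_TC07971 and Ca_TC16732 kept more expression in young leaves than in flower buds. Ca_TC09532 had 436 RPKM in the seedling, 1261 in the meristem and 29.3 in young leaves. Its flower buds had 3.4, 5.15, 4.41 and 2.52 RPKM and its flowers 12.3, 15.4, 30.6 and 29.3, so flowers 3 and 4 were close to young leaves. Ca_TC07971 had 1278 RPKM in the seedling, 325 in the meristem and 47 in young leaves. Its flower buds had 9.04 to 11.7 RPKM, and its flowers 14.4, 17.6, 42.6 and 47.9, also with flowers 3 and 4 near young leaves. Ca_TC16732 had 1083 RPKM in the seedling, 153 in the meristem and 11.99 in young leaves, with 1.56 to 3.04 in flower buds and 0.599 to 2.89 in flowers, so that no reproductive library came near young leaves.

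**Figure D2:**
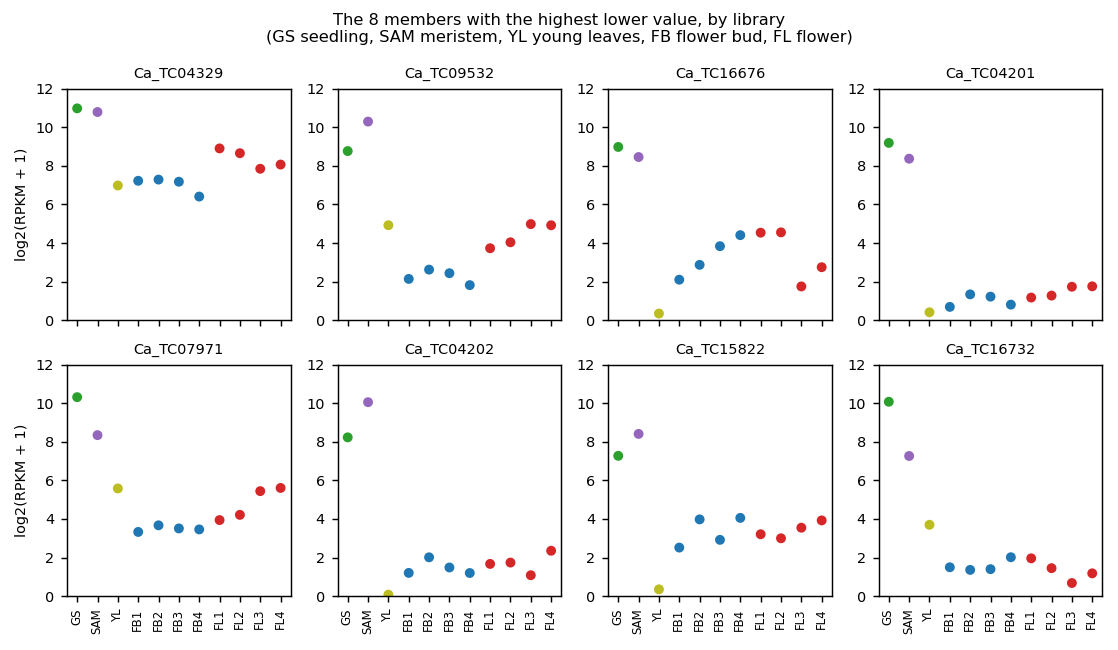
Level, as log2(RPKM + 1), of the 8 members with the highest lower value, 1 point a library. Seedling and meristem lie at the top of each panel, Ca_TC16676, Ca_TC04201, Ca_TC04202 and Ca_TC15822 have their lowest point in young leaves, and the flowers of Ca_TC04329, Ca_TC09532 and Ca_TC07971 lie above their flower buds.

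The rule bounds how far the seedling and meristem levels of a member can differ. The ratio of seedling to meristem had a median of 1.16, and quartiles of 0.695 and 1.82. The 2 levels were within 2-fold of each other for 61 members, while 21 were at least 2-fold higher in the seedling and 12 at least 2-fold higher in the meristem. Among the 15329 transcripts with at least 5 RPKM in both, 7.78% were at least 2-fold higher in the seedling and 17.5% in the meristem, but the rule bounds the members' ratio, so nothing is read from that difference. In all, 57 members were higher in the seedling and 37 in the meristem. For 22 of the 94 the 95% counting interval of the ratio, from recovered reads, included 1, while it lay above 1 for 43 and below 1 for 29. The median log2 ratio was 0.22 as deposited and 0.53 after median-of-ratios scaling between libraries.

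**Figure D3:**
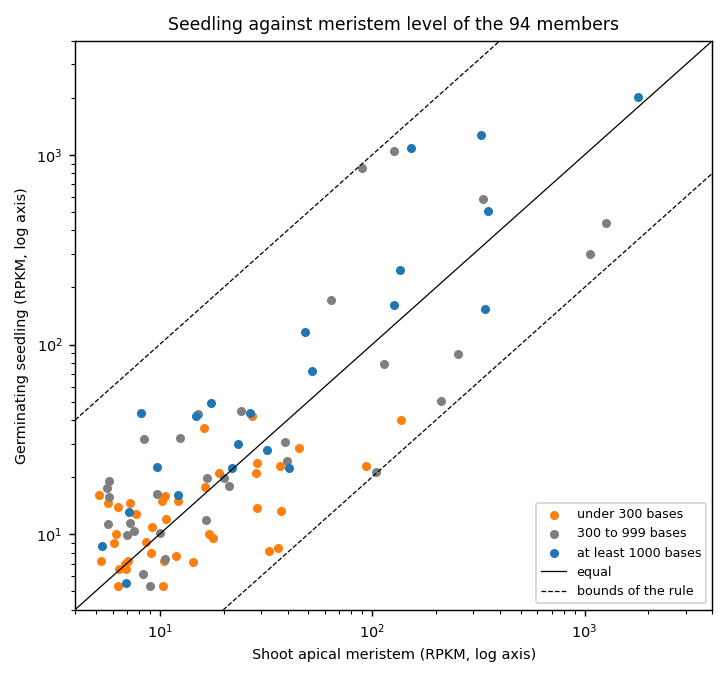
Seedling RPKM against meristem RPKM for the 94 members on log axes, coloured by recovered transcript length, with the line of equal levels and the rule's bounds at 10-fold and 5-fold. The rule keeps the points in a band around the line of equal levels. The lower of the seedling and meristem values runs from 5.18 to 1779 RPKM, and for the 40 members under 300 bases from 5.18 to 40.2 RPKM.

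The balance was most uneven in a few members, of which Ca_TC10227 and Ca_TC18789 lay just inside the bounds. Ca_TC10227 was the most seedling-weighted, with 851 RPKM in the seedling and 89.6 in the meristem, a ratio of 9.50 (95% counting interval 9.09 to 9.92). Ca_TC17113 followed with 1045 and 127 RPKM, a ratio of 8.22, ahead of Ca_TC16732 at 7.07 and Ca_TC15616, with 43.4 and 8.17 RPKM, at 5.32. At the other end Ca_TC18789 had 104 RPKM in the meristem and 21.2 in the seedling, 4.90 times less (95% counting interval 4.45 to 5.41). Ca_TC27984, Ca_TC13559 and Ca_TC28809 were 4.25, 4.23 and 4.09 times higher in the meristem, at 36.1, 212 and 93.3 RPKM there. A further 9 transcripts met the level and gap criteria and not the bounds, 4 of them with the seedling at least 10 times the meristem and 5 with the meristem at least 5 times the seedling.

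The gap to the other tissues was under 5-fold for 45 members and at least 10-fold for 27. The median was 5.24-fold among the members with a value above 0 elsewhere. The members nearest the threshold were Ca_TC27535, with 17.9 RPKM in the seedling, 21.1 in the meristem and 5.93 in flower 4 (3.01-fold), and Ca_TC18139, with 42.1, 14.8 and 4.91 RPKM (3.02-fold). Just outside it, Ca_TC33392 had a gap of 2.998-fold and Ca_TC14637 of 2.91-fold.

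Some members were close to absent elsewhere. There were 19 members under 1 RPKM in all 9 other libraries, and 14 with at least 1 RPKM in all 9. Ca_TC25103 had no reads in any of the 9, with 8.19 RPKM in the seedling (29 reads, 95% Poisson interval 5.48 to 11.8 RPKM) and 32.6 in the meristem (152 reads). As the upper limit of the pooled level elsewhere, 3 reads were taken in the 240208300 of those 9 libraries together. The measured seedling level was 97 times that limit and the measured meristem level 386 times. The limit is for the 9 libraries pooled, and is higher for any single library. The counting interval of the seedling value is not carried into these folds. Ca_TC26710 had 14.9 RPKM in the seedling, 10.3 in the meristem and 1 read elsewhere, in flower 3. Ca_TC25278 had 17.7 and 16.4 RPKM, with 0.235 RPKM in flower bud 2 as the highest of its values elsewhere. Their recovered lengths were 148, 297 and 293 bases. Ca_TC25103 and Ca_TC26710 had reads in 2 and 3 libraries, and a multiple of the recovered length would equally give whole reads, so their lengths and read numbers are lowest estimates and the interval of Ca_TC25103 the widest.

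Transcript length, which the rule does not name, differed between the members and other transcripts. The members had a median recovered length of 404.5 bases, against 1350 bases among the 15329 transcripts with at least 5 RPKM in both tissues and 736 among all. Of the members, 42.6% (40 of 94) were under 300 bases, against 7.83% of the 15329 and 29.8% of all transcripts. The bound of 300 bases was chosen after the lengths were seen. The short members had low levels. Their lower value ran from 5.18 to 40.2 RPKM with a median of 8.57, while the 22 members of at least 1000 bases had a median of 24.9 RPKM.

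Reads were few behind the short members. The median over short members of the smaller of the seedling and meristem read numbers was 45, and the lowest was 23, against a median of 1316.5 for members of at least 1000 bases. The part of this counting error in the makeup of the list was not tested. With at least 50 reads required in both libraries, 18 of 72 members (25%) were under 300 bases, against 2.16% of 14361 transcripts. The transcripts that were at least 5 RPKM in 1 of the 2 tissues and 3 times any of the other 10 libraries were also short: the 587 of the seedling had a median of 511 bases, and the 540 of the meristem 507. Short medians were thus also found outside the members.

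**Figure D4:**
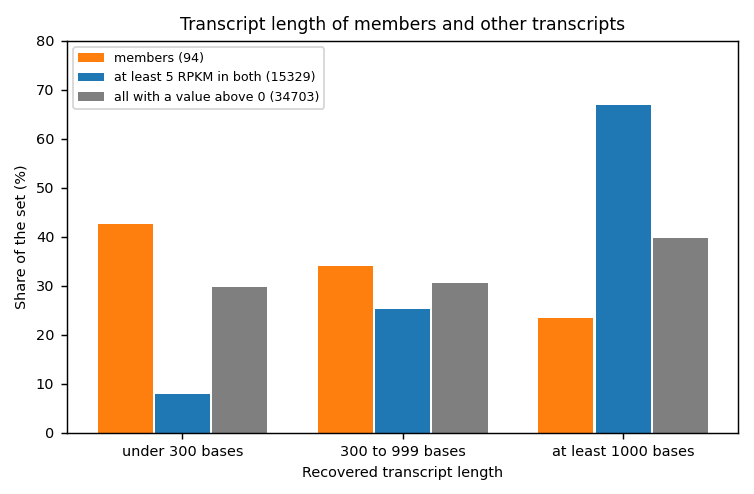
Share of transcripts in 3 classes of recovered length, among the 94 members, the 15329 transcripts with at least 5 RPKM in both seedling and meristem, and the 34703 with a value above 0 in any library. Members are 42.6% under 300 bases and 23.4% at least 1000 bases, against 7.83% and 66.9% of the 15329.

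The seedling and the meristem shared more such transcripts with each other than either did with young leaves. Applied without the bounds on the ratio, the same level and gap criteria gave 103 transcripts for seedling and meristem, 13 for seedling and young leaves, and 12 for meristem and young leaves. Over all 55 pairs of libraries, 50 gave under 14 and 32 gave 0. Flower 3 with flower 4 gave 161, the most, and flower 1 with flower 2 gave 67. Flower bud 1 with flower bud 2 gave 36, and the meristem with flower 4 gave 24, more than the meristem with young leaves. A pair whose libraries resemble a further library gives few by construction, so these counts do not measure likeness.

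The members' remaining expression was compared between the other organs. By the highest of young leaves, the mean of the 4 flower buds and the mean of the 4 flowers, 45 members (47.9%) were highest in flowers, 28 (29.8%) in young leaves, 20 (21.3%) in flower buds, and 1 in none. Among the 15329 transcripts with at least 5 RPKM in both seedling and meristem, 34.2% were highest in flowers, 23.5% in young leaves and 42.2% in flower buds. The 587 transcripts of the seedling and the 540 of the meristem were nearer to the members, with 45% and 39.4% highest in flowers and 24.7% and 28.7% in flower buds. Median-of-ratios scaling left 44 members highest in flowers and 13 in flower buds, and raised those highest in young leaves to 36. The single highest of the 9 libraries was flower 4 for 21 members, flower 3 for 15 and young leaves for 13. Flower bud 4, for 3, was the least frequent. Among transcripts with a value above 0 in those 9, flower 4 was highest for 22.6% of members and 11.9% of the 15329. It was highest for 16.3% of the 587 of the seedling and 32.1% of the 540 of the meristem, so this is not particular to the members. Flower 3 was highest for 16.1% of members and 13.2% of the 15329, and young leaves for 13.98% and 14.83%.

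The balance of flower against flower bud was not part of the rule and was tested with limma on log2(RPKM + 1) over the 8 reproductive libraries, across all 30720 transcripts with at least 1 RPKM in at least 3 of them. The 8 libraries are stages and not replicate plants, so p-values measure the spread between stages. Of the 94 members 64 passed that filter. Among them 5, 2 of which were called, passed with no flower bud at 1 RPKM or more, and 2, both called, with no flower at 1 RPKM or more. A member that passes only through the organ where it is high differs by construction, so the counts of calls are a description. Flowers were higher for 6 of these (9.38%, adjusted p under 0.05 and a log2 difference of at least 1), where 5.2% of all tested transcripts were called. Flowers were lower for 2 members (3.13%), where 5.76% of all were called. In the 587 transcripts of the seedling, 20.8% of those tested were called higher, and in the 540 of the meristem 4.59%. Without the filter 93 members were tested and the counts were again 6 and 2. The 4 flowers and the 4 flower buds did not overlap for 10 members (15.6%), 8 of them higher in flowers, where 26.3% of all tested transcripts did not overlap. Without regard to the threshold, flowers were above flower buds for 50 of 64 members (78.1%) and for 39.6% of all tested transcripts, and with median-of-ratios scaling for 56 of 63 members and 49.3% of all. The median log2 difference was 0.26 for the members and -0.16 for all tested. Over those tested it was 0.33 in the 587 transcripts of the seedling and 0.08 in the 540 of the meristem, so this lean is not particular to the members. Median-of-ratios scaling moved that of all tested to -0.01 and that of the members to 0.37, and moved the share of higher among all calls from 47.5% to 62.4% (2002 higher, 1208 lower).

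Among the members called higher in flowers, Ca_TC09532 rose from 3.87 ± 1.15 RPKM (SD, n = 4) in flower buds to 21.9 ± 9.42 (SD, n = 4) in flowers. On the log2 scale this was 2.17 ± 0.32 (SE) with a limma adjusted p of 0.00373, and every flower was above every bud. Ca_TC04329 was at 133 ± 33.1 RPKM in flower buds and 345 ± 116 in flowers (SD, n = 4 each). It rose by 1.34 ± 0.30 (SE) on the log2 scale, with a limma adjusted p of 0.0171 and no overlap. The other 4 higher calls, Ca_TC07971, Ca_TC32792, Ca_TC28809 and Ca_TC18139, had log2 differences of 1.06 to 1.32. With a pseudocount of 0.1 in place of 1, Ca_TC32792 rose by 2.62 and Ca_TC09532 by 2.41, so their order depends on the pseudocount. Ca_TC32792 had 0.379, 0.882, 0.54 and 0 RPKM in flower buds and 1.81, 1.76, 1.89 and 5.91 in flowers, with flower 4 well above the other flowers. Ca_TC28809 had 0.3 to 0.736 RPKM in flower buds and 1.29 to 2.79 in flowers. Neither Ca_TC32792 nor Ca_TC28809 had a flower bud at 1 RPKM or more. Both passed the filter through flowers alone, and their calls are a description.

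Ca_TC10227 and Ca_TC12413 were the 2 members called lower in flowers than in flower buds. Ca_TC10227 had 18.9, 26.1, 26.3 and 14 RPKM in flower buds and 0.298, 0.379, 0.302 and 0.69 in flowers, with 1.22 in young leaves. The difference of -3.94 ± 0.24 (SE) on the log2 scale had a limma adjusted p of 0.000106. Ca_TC12413 had 72.1 RPKM in the seedling and 52 in the meristem, 1.54, 5.45, 6.64 and 3.33 in flower buds and 0.191, 0.602, 0.731 and 0.732 in flowers. The difference of -1.64 ± 0.35 (SE) had a limma adjusted p of 0.0146. In both, every flower was below every bud. Neither had a flower at 1 RPKM or more, so both passed the filter through flower buds alone. They differ in part by construction, and their values are a description.

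The calls rest on a spread taken from the reproductive libraries alone. In a fit on all 11 libraries, with the vegetative tissues as 1 further group, 0 members were called by limma in either direction and 2 were at an unadjusted p under 0.05. By construction that fit adds the difference between young leaves and the other 2 vegetative tissues, which the rule makes large for every member, to the spread. Without flower bud 2, 3 or 4 or flower 4, 3 members were called higher in place of 6. Ca_TC07971 lost its call without any single flower bud or without flower 3 or 4, and Ca_TC32792 without any single flower bud or without flower 4. Ca_TC18139 lost it without flower bud 2 or 4, and Ca_TC28809 without flower bud 3, flower 2 or flower 4. Ca_TC09532, Ca_TC04329, Ca_TC10227 and Ca_TC12413 held their calls without any single library. Of these, Ca_TC10227 and Ca_TC12413 passed the filter through flower buds alone, so nothing is read from their held calls.

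**Figure D5:**
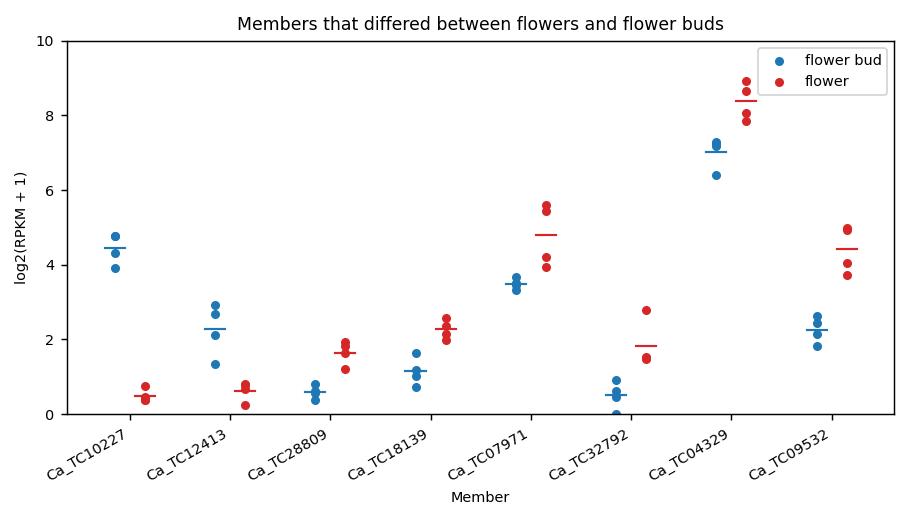
Levels, as log2(RPKM + 1), of the 8 members called between flowers and flower buds, with 4 bud and 4 flower libraries each and short lines at the group means. Ca_TC10227 and Ca_TC12413 are higher in all buds than in any flower, and the other 6 are higher in all flowers than in any bud.

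Young leaves were the other vegetative tissue. The median young leaf level was 0.777 RPKM over the 94, against 0.733 to 1.17 in flower buds and 1.08 to 1.40 in flowers. There were 55 members under 1 RPKM in young leaves, 16 of them with no reads. On the log2(RPKM + 1) scale young leaves were at least 1 below the mean of the 8 reproductive libraries for 15 members (16%), where 22.7% of all transcripts and 24.3% of those with at least 5 RPKM in both seedling and meristem were, and at least 1 above it for 8 (8.51%), where 8.96% were. The median difference was -0.11 for the members and -0.30 for all transcripts, and the members' median was 0.0074 with quantile normalization, so its sign depends on the scaling. There was 1 young leaf library, so no test was made.

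The extremes in young leaves were large. Ca_TC16676 and Ca_TC15822 were 3.01 and 3.04 lower on the log2 scale in young leaves than in the mean of the reproductive libraries, from 2.36 RPKM or more in each of those to under 0.3 RPKM. Ca_TC16732 was 2.26 higher in young leaves and Ca_TC18789 1.96 higher. Ca_TC18789 had 6.77 RPKM in young leaves, 0.4 to 1.36 in flower buds and 0.592 to 2.64 in flowers.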

How the data were processed

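Each of the 11 deposited files held RPKM values for 34760 transcripts. A further 128 rows a file name no transcript and stayed out. Per the series text in the labels, the authors used NGS QC Toolkit for read filtering, mapped to the transcript set and deposited RPKM values. For the aligner and for reads shared between transcripts, the method is not given in the sources used here. As RPKM is relative to the library total, abundant transcripts in a library lower its other values.

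Reads, lengths and totals were recovered from the values: ratios of low values gave relative depth, and each length is the shortest of at least 100 bases that makes the reads of every library whole, within 4e-09 of the value plus 3e-06 reads. All 34703 transcripts with a value above 0 came out whole, and reads summed to 99.95% to 99.998% of the totals (14536530 to 35643139). On simulated data of 34703 transcripts, 11 of 11 totals and 99.94% of values were returned. The lengths of 5 members, above 0 in at most 4 libraries, are the least certain. Intervals and floors of 3 reads cover counting error only.

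Flower was compared with flower bud by limma 3.58.1 (R 4.3.3) on log2(RPKM + 1) with an intensity trend, over transcripts with at least 1 RPKM in at least 3 of 8 libraries, with Benjamini-Hochberg adjustment over all of them. On simulated data with 200 of 30720 transcripts changed, 71.5% of changes of 2 on the log2 scale were recovered, 91.5% of changes of 3, and 0% of changes of 1. In the data 3365 of 30720 (11%) were called, so the adjustment was less strict there than in the simulation. The simulated shares therefore do not carry over to the data, where Ca_TC18139 was called at a log2 difference of 1.12. Differences on this scale understate the change of low transcripts. Seedling, meristem and young leaves have 1 library each and were not tested.

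The members and lists were chosen with earlier results of these data known. Transcripts were named by rank: highest lower value (8), most uneven balance (4 each way), largest gap (4), no reads elsewhere, largest called differences (4 each way) between flower and flower bud, young leaf extremes (2 each way) and those nearest the threshold. Alternatives were other thresholds, pseudocounts, filters, scalings, a stage block and leaving out single libraries.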

Additional observations from a re-analysis of the deposited data

Results flagged for a closer look

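Among the 22 named members, 44 groups of 4 libraries (flower buds or flowers) were searched for a library far from the other 3, and 8 were found. The cut flags about 1 in 20 groups of 4 replicates by chance, but these groups are stages, so that rate does not apply to them. Several of these values rest on single reads, and any value among libraries with no reads is flagged by construction. Ca_TC04329 had 84.1 RPKM in flower bud 4, where the nearest other bud had 144. Ca_TC17113 had 2.84 RPKM in flower bud 1, below the 5.84 of the nearest bud. Ca_TC15616 had 2.17 RPKM in flower 3, above the 1.2 of the nearest flower. Ca_TC32792 had 5.91 RPKM in flower 4, above the 1.89 of the nearest flower. The others were at or near no reads: Ca_TC27984 had 0.333 RPKM in flower 4 and Ca_TC26710 0.165 in flower 3, each with no reads in the other 3 flowers. Ca_TC25278 had 0.235 RPKM in flower bud 2 with no reads in the other 3 buds, and 0 in flower 3 where the nearest flower had 0.117.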

How the results depend on the processing

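The list grew to 181 transcripts with a gap of 2-fold and shrank to 62 with 4-fold and to 54 with a minimum of 10 RPKM. Leaving out each of the other 9 libraries gave 95 to 119, the most without young leaves. Median-of-ratios scaling gave 74, of which 69 were members, and quantile normalization 77, of which 73 were. At a mean of at least 5 RPKM only 11 members were tested, of which 3 were called higher in flowers and 1 lower. Of the 19050 transcripts tested at that mean, 1218 were called higher and 1204 lower. Members called higher numbered 0 in the fit on all 11 libraries and 3 to 6 without single libraries. Members called lower numbered 0 and 2 in the same order, the last without any single library. Over all tested transcripts, the 1597 higher and 1768 lower calls became 760 and 1082 in the fit on 11 libraries, and ran from 994 to 1825 and from 1154 to 2169 without single libraries. Over their alternatives the limma adjusted p of Ca_TC09532 ran from 0.0026 to 0.139 and of Ca_TC04329 from 0.0089 to 0.261. That of Ca_TC10227 ran from 6.73e-05 to 0.0823 and of Ca_TC12413 from 0.006 to 0.318. Each call was lost in the fit on 11 libraries alone. Ca_TC10227 and Ca_TC12413, the 2 lower calls, passed the filter through flower buds alone, so nothing is read from their ranges or their held count.

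Buds and flowers share stage numbers, which are stages and not pairs: deviations of same-numbered libraries correlated at -0.20 to -0.08, and 0 of the 4 buds correlated best with its own number. With the stage number as a replicate block, 3 members were called higher and 2 lower. Calls over all 30720 tested transcripts also fell, from 1597 to 1194 higher and from 1768 to 1329 lower. Ca_TC07971, Ca_TC32792 and Ca_TC18139 were no longer called, with limma adjusted p of 0.0607, 0.0883 and 0.0693. The numbers do not pair the libraries, and why these calls were lost was not tested.

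The median log2 ratio of seedling to meristem was 0.53 with median-of-ratios scaling. The median difference of young leaves from the reproductive libraries was -0.25 with a pseudocount of 0.1, -0.029 with median-of-ratios scaling, -0.030 against flower buds alone, and turned to 0.0074 with quantile normalization. Members highest in flower buds numbered 13 and 12 under the 2 scalings, and those highest in young leaves 36 and 39. These alternatives were added after the data were seen. The cause of these shifts was not tested. Depth limits the short members most: 22 members had under 50 reads in the seedling or the meristem.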
